A study of Homo sapiens with 54 samples.

Results

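Sensitive DLD-1 cells were compared at baseline with the sensitive forms of HCT-116 and HT-29, the 2 other human colorectal cancer cell lines of the series. The libraries were chosen by their labels: the 3 libraries of sensitive DLD-1 given 10 µM uracil for 24 h, set against the 3 of sensitive HCT-116 and the 3 of sensitive HT-29 given the same, so 9 of the 54 libraries of the series entered the comparison. Each line was 1 group in 1 fit, and DLD-1 was tested against the mean of the other lines and against each of them. The series is RNA-seq of poly(A)-selected RNA from 18 conditions: the 3 lines, each as the drug-sensitive parent and as a form grown to resistance to 5-fluorouracil (5-FU, a uracil analogue used against colorectal cancer), treated with uracil, 5-FU, or 5-FU with irradiation. Uracil is the natural base and served as the control treatment. All 9 libraries share that treatment, and no transgene or engineered deletion is described for them.

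The lines are described by the study as differing in their driver genes. HT-29 carries mutant BRAF, and DLD-1 and HCT-116 are microsatellite unstable. Each line stands for a single tumour and a single culture history, so a difference between lines cannot be assigned to a gene, a tumour or a culture. The study describes the 3 libraries of a group as biological triplicates, and p-values measure the spread between such cultures of one line, not between tumours.

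As background, the colonic epithelium is renewed from crypt stem cells kept by WNT signalling, which acts through beta-catenin and TCF/LEF factors. Their descendants become absorptive or secretory cells under intestinal transcription factors such as CDX2, HNF4A and ATOH1. Colorectal cancer lines keep parts of these programmes, and in epithelial cells NF-kB and interferon pathways add chemokine and antigen presentation genes on top.

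Total estimated counts were between 39727889 and 218518001 in the 9 libraries, with a median of 55914100. DLD-1 replicate 2 was the deepest, and the next deepest held 66422190. Of 9 epithelial markers, all 9 were at or above 1 TPM (a transcript abundance scaled for length and library total) in every DLD-1 library, 6 in every HCT-116 library and 7 in every HT-29 library. Of 26 stromal, endothelial and immune markers, 19 stayed under 1 TPM in all 9 libraries. Their summed level was 9.16 to 11.03 TPM in DLD-1, 38.7 to 41.3 TPM in HCT-116 and 13.6 to 15.7 TPM in HT-29.

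A gene was called where the Benjamini-Hochberg adjusted p of edgeR's quasi-likelihood test was at most 0.01 and the difference at least 1 on the log2 scale. Of 22029 genes tested, 3102 were higher in DLD-1 than the mean of the other lines (14.1%) and 2777 were lower (12.6%). Against HCT-116 alone, 3079 genes were higher (14.0%) and 3921 lower (17.8%), and against HT-29 alone 4069 were higher (18.5%) and 3254 lower (14.8%). Higher than each of the other lines were 1363 genes (6.19%), and 1184 were lower than each (5.37%). The mean of the other lines can hide a disagreement between them: among the 3102 genes higher than the mean, 216 were lower than one of the lines, as were 93 of the 2777 in the opposite sense. The median difference over all genes tested was 0.0246 on the log2 scale.

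**Figure D1:**
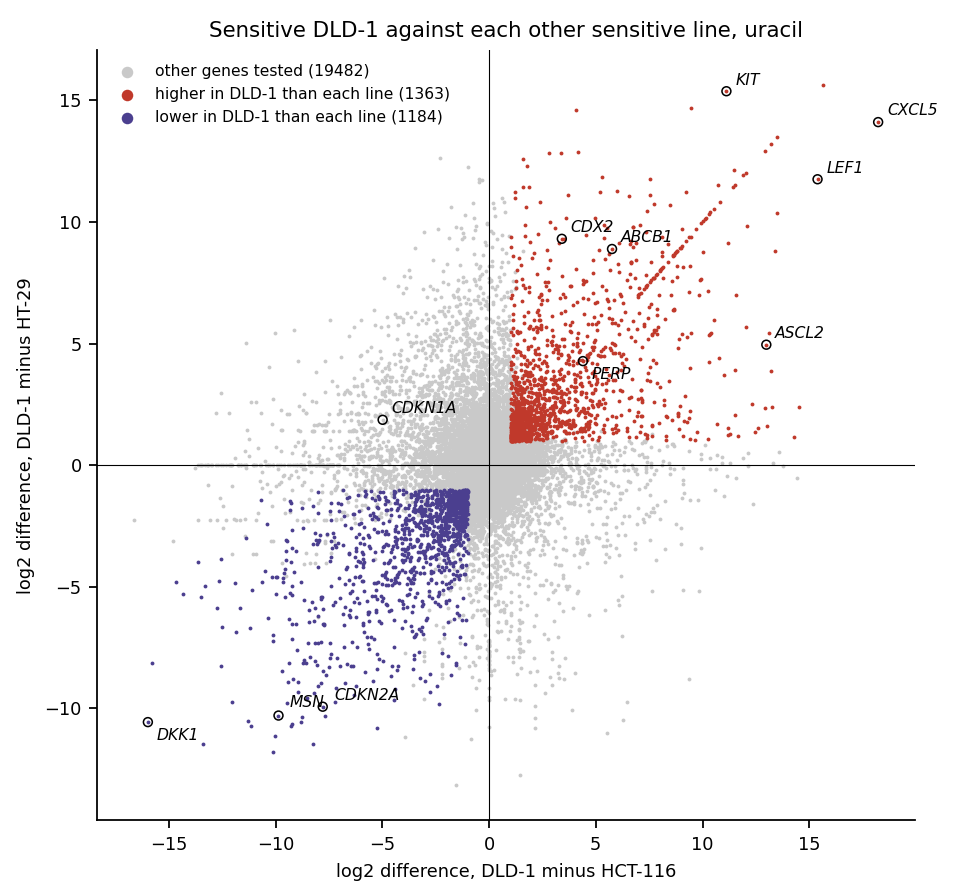
Fitted log2 differences of DLD-1 from HCT-116 (horizontal axis) and from HT-29 (vertical axis), 1 point a gene tested. The 1363 genes higher than each line are red, the 1184 lower than each are purple and the other genes are grey; the farthest points are genes with almost no reads on one side, where the fitted size depends on the prior count.

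The largest differences upward were in genes read in DLD-1 and almost nowhere else. CXCL5, a chemokine that draws neutrophils, stood at 2147, 1957 and 1979 TPM in the 3 DLD-1 libraries. It had at most 1 count in any HCT-116 library and 0.190, 0.0284 and 0.0594 TPM in HT-29. The groups did not come near each other, and against HT-29 the difference was 14.11 on the log2 scale (adjusted p against the mean = 9.26e-23, edgeR).

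LEF1, a DNA-binding partner of beta-catenin, was at 56.0, 57.3 and 56.2 TPM in DLD-1. It had 0 counts in all HCT-116 libraries, where DLD-1 was at least 1312-fold higher, taking 3 counts per library as the floor, and at most 2 counts in any HT-29 library. KIT, the receptor for stem cell factor, was at 27.2, 26.7 and 27.1 TPM in DLD-1, with at most 2 counts in HCT-116 and 0 in HT-29, where DLD-1 was at least 1206-fold higher. SAA1, an acute-phase serum amyloid protein, was at 126, 117 and 125 TPM against at most 1 count in any library of the other lines. None of these genes overlapped between DLD-1 and the other lines. The same held for 97.6% of all genes higher than each line and for 56.2% of all genes tested.

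OLR1, a scavenger receptor for oxidised lipoprotein, was at 202, 197 and 183 TPM in DLD-1 and at or under 0.172 TPM in each of the other 6 libraries, a difference from the mean of 11.81 ± 0.11 (SE) on the log2 scale (adjusted p = 1.64e-22, edgeR). TMEM52B, a membrane protein gene, was at 95.2, 102 and 99.6 TPM against at most 0.0809 TPM. CADM1, a cell adhesion protein, was at 16.5, 13.8 and 13.4 TPM against at most 2 counts in any other library. ZFP57, a KRAB zinc finger protein that guards imprinted methylation, was at 14.2, 14.8 and 14.2 TPM in DLD-1, at 0 counts in HCT-116, and at 0.0819 TPM in HT-29 replicate 1 with 0 in the other HT-29 libraries. GSPT2, an intronless translation termination factor gene, and AC097709.1 had 0 counts in all 6 libraries of the other lines. In DLD-1 they were at 12.1, 12.01 and 12.8 TPM and at 14.1, 16.5 and 15.7 TPM. AC097709.1 has no type or position in the annotation used. GSPT2 is a close copy of GSPT1, so its share of reads rests on how the quantifier divided them.

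Among the most abundant genes called, BCYRN1, a short non-coding RNA with an Alu-like part, was at 7258, 7092 and 7420 TPM in DLD-1, above 2531, 2739 and 2505 TPM in HCT-116 and 822, 792 and 702 TPM in HT-29. PERP, a desmosome-linked membrane protein, was at 1350, 1262 and 1305 TPM in DLD-1, and both other lines sat between 56.2 and 63.0 TPM. PERP was 4.34 ± 0.06 (SE) higher than the mean on the log2 scale (adjusted p = 7.35e-21, edgeR). BCYRN1 shares sequence with many repeats, so its level is uncertain.

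Genes lower than each line were ranked by their difference from the mean among those averaging at least 10 TPM in both other lines. DKK1, a secreted WNT inhibitor, was at 0, 0.00925 and 0 TPM in DLD-1 (at most 2 counts), against 762, 715 and 770 TPM in HCT-116 and 15.9, 17.98 and 13.4 TPM in HT-29. MSN, moesin, which ties actin to the membrane, was at 0.389, 0.191 and 0.172 TPM in DLD-1 against 115, 107 and 112 TPM in HCT-116 and 140, 142 and 136 TPM in HT-29. Its difference from the mean was -10.08 ± 0.20 (SE) on the log2 scale (adjusted p = 1.61e-18, edgeR). Neither gene overlapped between DLD-1 and the others, as was so for 93.4% of all genes lower than each line.

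CDKN2A, which encodes the p16 and p14ARF cell cycle inhibitors, was at 0.995, 0.172 and 0.140 TPM in DLD-1, 65.5, 65.7 and 58.8 TPM in HCT-116 and 263, 247 and 241 TPM in HT-29. ANO6, a calcium-activated phospholipid scramblase, was at 0.134, 0.0916 and 0.0860 TPM in DLD-1 and between 29.1 and 35.9 TPM in the other lines. NTSR1, the neurotensin receptor, was at 0.204, 0.180 and 0.106 TPM in DLD-1, 80.7, 77.8 and 76.3 TPM in HCT-116 and 31.3, 31.5 and 32.0 TPM in HT-29. The zinc finger genes ZNF512 and ZNF22 did not pass 0.0992 TPM in any DLD-1 library and did not go under 17.7 TPM in any other. CALB2, calretinin, was at 0.435, 0.0244 and 0 TPM in DLD-1, with 19.2 to 20.7 TPM in HCT-116 and 169 to 180 TPM in HT-29. GALNT14 (an O-glycosylation enzyme), RTL8A and SLC17A9 (a vesicular nucleotide transporter) were likewise at or under 0.122 TPM in DLD-1.

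DLD-1 replicate 1 had the highest residual levels of these genes in TPM. It was the highest DLD-1 library in 10 of the 12 genes named for the largest differences downward. A wider set was taken from genes lower than each line that averaged at least 10 TPM in both other lines. In 21 of them the DLD-1 mean was under 1% of the lower of the other lines. Replicate 1 was highest in 17 of these 21, with a summed level of 5.66 TPM against 1.54 and 1.13 TPM in replicates 2 and 3. In counts, which follow depth, the 21 genes summed to 326 in replicate 1, 474 in replicate 2, the deepest library, and 93 in replicate 3. The origin of these reads was not tested. Without replicate 1 every one of the 131 genes chosen by the naming rule kept its direction and its call against the mean.

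AC011558.1, a gene with no type or position in the annotation used, also came out among the largest differences downward. It had 0 counts in DLD-1 against 16.4, 16.6 and 0 TPM in HCT-116 and 17.2, 9.36 and 10.1 TPM in HT-29. One HCT-116 library equalled DLD-1, and the gene was not called against each line under 5-FU. Abundant genes lower than each line were S100A6, a calcium-binding protein, at 870, 823 and 864 TPM in DLD-1 and at least 1981 TPM elsewhere, and MT-RNR2, the mitochondrial large ribosomal RNA, at 656, 706 and 617 TPM against at least 2718 TPM. EEF1G, a translation elongation factor subunit, was at 859 to 891 TPM in DLD-1 and 1618 to 1805 TPM elsewhere, with a difference of -1.06 ± 0.06 (SE), just past the threshold.

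Some protein-coding genes were present in one place and at the counting floor in the other. Taking present as a mean of at least 1 TPM with more than 3 counts in each library, and the floor as at most 3 counts in every library, 40 protein-coding genes were present in DLD-1 and at the floor in all 6 other libraries. Besides those named above they included WNT5A (a non-canonical WNT ligand), TIMP3 (a metalloproteinase inhibitor), ISX (an intestinal homeobox factor), IRF8 (an interferon regulatory factor), DLX6 and DMRTA2 (developmental transcription factors) and LY6G6D (a surface protein of the major histocompatibility region). In the opposite direction 10 protein-coding genes averaged at least 1 TPM in both other lines and were at the floor in DLD-1: DKK1, HOXC13, CXCR4 (a chemokine receptor), SPP1 (osteopontin), AADAC, KCTD12, GPR158, MMEL1, CPNE8 and TRAPPC2B, a near-copy of TRAPPC2 whose reads may be divided between the pair. DLD-1 replicate 2 is the deepest library, so the floor of 3 counts stands for a lower level there. Short RNAs, for which a few counts make more than 1 TPM, were left out of this count.

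Chemokines and NF-kB feedback genes were the list with the largest median difference, 2.19 on the log2 scale against the mean of the other lines. Of 40 genes listed, 34 passed the filter on low counts, 24 of them were higher than the mean and 3 lower, and 17 were higher than each line and 1 lower than each. The shares over all genes tested were 14.1%, 12.6%, 6.19% and 5.37%, in the same order, and stand beside the counts of every list below as well. The list was chosen with earlier results of these data known and is described here without a test.

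The CXC chemokines that bind CXCR2 lie close together on chromosome 4. Promoters are shown for CXCL1, CXCL2, CXCL3 and CXCL5, which were higher than each line and hold the same NF-kB motif. They were picked for that, and other members of the stretch differ: CXCL8 had 0 matches, and CXCL6 had 2 but was not called. The kappa B consensus searched was GGG, A or G, any 2 bases, 2 bases of C or T, then CC. Looser forms were not searched, so 0 matches does not mean that a promoter lacks a site. The 120 bases just before the RefSeq start (build GRCh38.p14) are printed 5′ to 3′ on the gene's strand, with matches to the kappa B consensus in capitals. CXCL1 is at chr4:73869273-73869392 on the plus strand, and CXCL2 at chr4:74099196-74099315, CXCL3 at chr4:74038690-74038809 and CXCL5 at chr4:73998678-73998797 are on the minus strand.
CXCL1: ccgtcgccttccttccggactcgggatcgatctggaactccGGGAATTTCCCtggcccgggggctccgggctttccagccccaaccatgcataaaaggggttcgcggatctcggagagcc
CXCL2: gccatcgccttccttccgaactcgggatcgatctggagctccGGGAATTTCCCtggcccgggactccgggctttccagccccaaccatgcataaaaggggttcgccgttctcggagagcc
CXCL3: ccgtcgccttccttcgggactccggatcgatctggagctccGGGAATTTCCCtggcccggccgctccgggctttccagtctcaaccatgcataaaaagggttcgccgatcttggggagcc
CXCL5: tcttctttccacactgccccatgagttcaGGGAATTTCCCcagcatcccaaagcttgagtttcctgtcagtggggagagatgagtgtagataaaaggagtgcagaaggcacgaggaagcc

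The capital run is the same in the 4 promoters and holds 2 overlapping matches of 10 bases, 1 on each strand. In the 250 bases before the start, the consensus was found on either strand in 2614 of 27305 RefSeq promoters (9.57%). It was found in 13 of the 25 tested list members with a promoter in the table (52%), in 11 of the 18 higher than the mean and in 2 of the 7 others, CXCL6 and CXCL10. The list was drawn up to hold NF-kB feedback genes, so its share beside that of all promoters is no test. Whether the matches bear on the differences of DLD-1 was not tested. A match is a description of these letters, and binding was not measured. CXCL1, CXCL2 and CXCL3 are close copies of each other, so their matches are not independent, and their reads may be divided between them.

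The neighbours of CXCL5 differed less than CXCL5 itself. CXCL3 was at 49.4, 47.3 and 43.1 TPM in DLD-1 and averaged 0.743 TPM in HCT-116 and 3.30 TPM in HT-29. CXCL1 was at 20.5, 19.02 and 17.7 TPM in DLD-1, with means of 1.33 and 5.95 TPM in the other lines, and CXCL2 was at 18.5, 18.6 and 16.7 TPM, with means of 0.681 and 1.77 TPM. PF4, platelet factor 4, averaged 10.1 ± 1.3 TPM (SD, n = 3) in DLD-1 and is so like PF4V1 that the pair may share reads. CXCL6, which sits in the same stretch, averaged 0.00542 TPM in DLD-1 and was not called. CXCL8, interleukin-8, averaged 20.3 TPM in DLD-1, 2.89 TPM in HCT-116 and 18.1 TPM in HT-29, so it was higher than HCT-116 but not called against HT-29.

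In the 13 tested protein-coding genes from CXCL8 to BTC (chr4:73740519-74794523, GRCh38), 8 were higher than each line and 0 lower. Over all genes tested these shares were 6.19% and 5.37%. PF4V1, one of the 8, had 0 counts in both other lines and was tested only because DLD-1 reads it. Near-copies among the 8 may share reads. The farther part of the stretch holds ligands of the EGF receptor. EREG, epiregulin, was at 271, 254 and 256 TPM in DLD-1, 99.7, 104 and 100 TPM in HCT-116 and 66.2, 61.7 and 63.1 TPM in HT-29, a difference of 1.59 ± 0.05 (SE) on the log2 scale from the mean. AREG, amphiregulin, averaged 191 TPM in DLD-1, 53.8 TPM in HCT-116 and 81.6 TPM in HT-29. The stretch was chosen after its values were seen.

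Other cytokines and acute-phase genes were higher in DLD-1 as well. SAA2 was at 28.3, 24.9 and 28.4 TPM against at most 0.349 TPM in any other library, and it lies beside SAA1 on chromosome 11. IL33, a nuclear alarmin, was at 11.9, 11.5 and 14.2 TPM against at most 0.579 TPM, and its difference from the mean was 7.78 ± 0.21 (SE). IL32 was at 19.6, 21.8 and 19.8 TPM against at most 0.973 TPM. LCN2, an iron-scavenging lipocalin, averaged 467 TPM in DLD-1, 1.59 TPM in HCT-116 and 207 TPM in HT-29.

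The list also held feedback and adhesion genes of the pathway. TNFAIP3 (A20), which switches NF-kB signalling off, averaged 11.7 TPM in DLD-1, 3.94 TPM in HCT-116 and 0.507 TPM in HT-29. NFKBIA, the inhibitor of NF-kB, averaged 62.4, 25.7 and 27.8 TPM, ICAM1 18.2, 0.226 and 2.37 TPM, BIRC3 8.44, 2.30 and 1.51 TPM and CCL20 13.1, 0.974 and 0.937 TPM, in the same order of lines. NFKB2 and RELB, which encode pathway subunits, were not called, with differences of 0.61 and 0.53.

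The list did not move as a whole. TNFAIP2 was the member lower than each line, at 1.04, 1.04 and 1.07 TPM in DLD-1 against 43.1 to 48.0 TPM in HCT-116 and 63.7 to 64.9 TPM in HT-29, a difference of -5.91 ± 0.07 (SE). PTGS2 and CXCL10 were lower than the mean of the other lines, PTGS2 at a mean of 0.866 TPM in DLD-1, 0.742 TPM in HCT-116 and 11.2 TPM in HT-29. CXCL10 did not pass a mean of 0.485 TPM in any line.

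**Figure D2:**
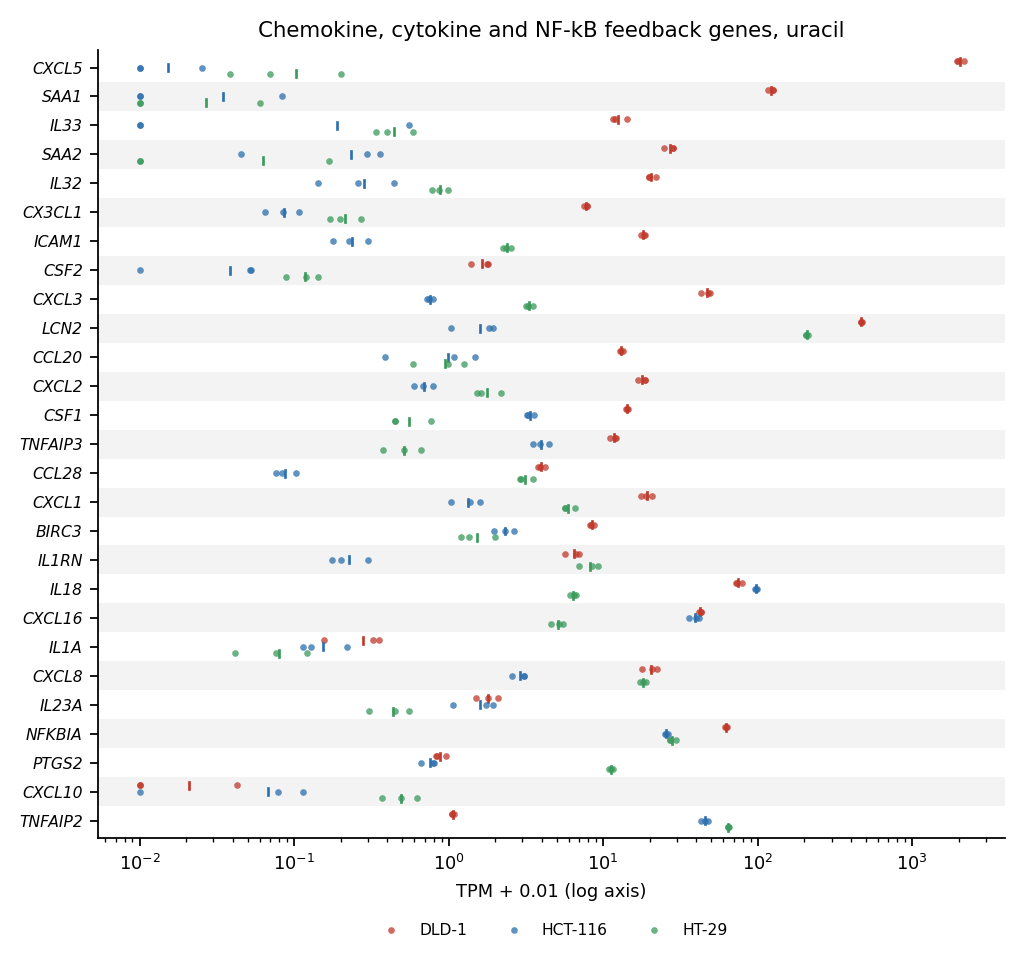
TPM on a log axis, with a small offset so that 0 can be drawn, in each of the 9 libraries for the 27 chemokine, cytokine and NF-kB feedback genes called against the mean; bars are group means. CXCL5 reaches about 2028 TPM in DLD-1, and TNFAIP2 is one of the few genes where DLD-1 lies lowest, at a mean of 1.05 TPM.

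Absorptive and pan-intestinal genes were divided. Of 40 listed, 27 were tested, 13 were higher than the mean and 8 lower, 5 were higher than each line and 2 lower than each, and their median difference was 1.25 on the log2 scale. The median was 2.24 against HCT-116 and -0.57 against HT-29, and 8 members were called in opposite directions against these lines. The members summed to 1183 to 1211 TPM in DLD-1, 246 to 261 TPM in HCT-116 and 1299 to 1329 TPM in HT-29.

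CDX2, the intestinal homeobox factor, was at 122.3, 115 and 123.0 TPM in DLD-1, 9.41, 11.2 and 11.1 TPM in HCT-116 and 0.181, 0.106 and 0.294 TPM in HT-29. It was 6.36 ± 0.06 (SE) higher than the mean on the log2 scale (adjusted p = 1.63e-22, edgeR), and no library of one line overlapped with another line. CDH17, the liver-intestine cadherin, was at 59.5, 58.3 and 59.4 TPM in DLD-1 and at most 0.695 TPM in any other library. LGALS3, galectin-3, averaged 644 TPM in DLD-1, 147 TPM in HCT-116 and 102 TPM in HT-29.

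Several intestinal genes separated HCT-116 from the other lines. HNF4A, a nuclear receptor of the gut and liver, averaged 17.99 TPM in DLD-1, 0.229 TPM in HCT-116 and 17.4 TPM in HT-29. EPS8L3 was at 73.8, 86.1 and 78.7 TPM in DLD-1 and 47.7 to 61.1 TPM in HT-29, and the mucin MUC13 was at 20.8 to 21.7 TPM in DLD-1 and 18.9 to 20.1 TPM in HT-29. Both genes had at most 1 count in any HCT-116 library. Their difference from HT-29 was 0.50 for EPS8L3 and -0.02 for MUC13, and neither was called there.

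Other intestinal genes had their highest mean in HT-29. LGALS4, galectin-4, averaged 2.31 TPM in DLD-1, 0.181 TPM in HCT-116 and 407 TPM in HT-29, and CEACAM1 averaged 0.705, 0.725 and 133 TPM. VIL1, villin, averaged 8.26, 0.0529 and 41.5 TPM. USH1C, harmonin of the brush border, was lower in DLD-1 than in each line, at 0.493, 0.338 and 0.287 TPM against 11.7 to 12.7 TPM in HCT-116 and 28.0 to 32.5 TPM in HT-29.

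Of 38 goblet, Paneth and enteroendocrine genes, 25 were tested, 10 were higher than the mean and 9 lower, and 7 were higher than each line and 4 lower than each, with a median of 0.39. The members higher than each line included secreted gastric and goblet products. MUC5AC, a gel-forming mucin, was at 4.21, 6.61 and 5.04 TPM in DLD-1, at most 1 count in HCT-116 and 0.736 to 1.33 TPM in HT-29. The trefoil peptides TFF3 and TFF1 were at 7.63 to 8.15 and 11.2 to 12.8 TPM in DLD-1, at 0 counts in HCT-116, and at 1.55 to 2.13 and 1.70 to 4.38 TPM in HT-29. Their differences from HT-29 were 2.05 and 1.69.

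AGR2, a mucin chaperone, was at 287, 278 and 292 TPM in DLD-1 and 112, 110 and 100 TPM in HT-29, with at most 1 count in HCT-116. FOXA2, a pioneer transcription factor of gut endoderm, was at 6.60, 6.77 and 7.13 TPM in DLD-1 and at most 1.26 TPM elsewhere. ATOH1, the factor that commits cells to the secretory fate, went the other way but was low throughout, with at most 1 count in DLD-1, 0.0506 to 0.112 TPM in HCT-116 and 0.421 to 0.607 TPM in HT-29. MUC2, the main goblet mucin, did not pass a mean of 0.646 TPM in any line, and SPDEF averaged 0.321 TPM in DLD-1 against 16.1 TPM in HT-29.

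Among WNT target and intestinal stem genes, 14 of the 27 tested of 30 listed were higher than the mean and 2 lower, 10 were higher than each line and 2 lower than each, and the median was 1.15. Besides LEF1, ASCL2, a stem cell transcription factor, was at 114, 112 and 113 TPM in DLD-1, at most 2 counts in HCT-116 and 3.52, 3.30 and 3.16 TPM in HT-29. It was 4.96 higher than HT-29 on the log2 scale. AXIN2, the feedback scaffold of WNT signalling, averaged 289 TPM in DLD-1, 9.87 TPM in HCT-116 and 42.1 TPM in HT-29. LGR5, the stem cell receptor for R-spondin, averaged 21.9, 0.0516 and 7.24 TPM.

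TNFRSF19 was at 19.97, 18.9 and 19.2 TPM in DLD-1, 1.03 to 1.32 TPM in HCT-116 and 0 counts in HT-29, where DLD-1 was at least 713-fold higher. BAMBI, a decoy receptor of the TGF-beta family, was at 40.1, 39.8 and 42.4 TPM in DLD-1, 5.56 to 6.82 TPM in HCT-116 and at most 0.137 TPM in HT-29. APCDD1 was at 4.14, 3.46 and 3.28 TPM against at most 3 counts in any other library.

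Other WNT targets were not higher. CD44, the hyaluronan receptor, averaged 46.1 TPM in DLD-1 against 458 and 112 TPM, and with DKK1 made up the members lower than each line. MYC averaged 99.4, 260 and 129 TPM and was not called against the mean (-0.98), nor were SOX9 (0.75), ZNRF3 (0.24), TCF7 (-0.64) and NOTUM (0.24).

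**Figure D3:**
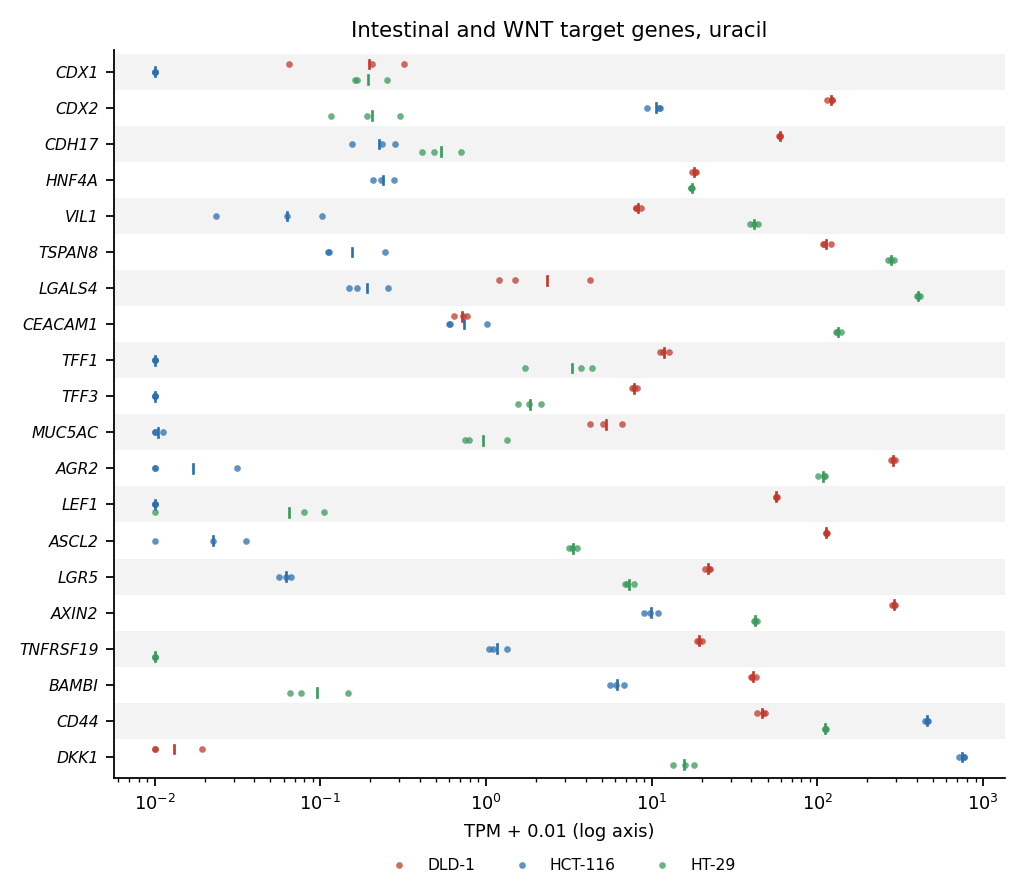
TPM on a log axis, with a small offset, in each of the 9 libraries for intestinal, secretory and WNT genes; bars are group means. CDX2, CDH17 and ASCL2 lie highest in DLD-1, LGALS4 and CEACAM1 highest in HT-29, and CD44 and DKK1 highest in HCT-116.

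HOX genes, which record position along the body axis, differed by cluster. Of 39 listed, 36 were tested, 15 were higher than the mean and 7 lower, 5 were higher than each line and 5 lower than each, and the median was 0.86. The members lower than the mean were all in the HOXC cluster, and the members higher than the mean in HOXA, HOXB and HOXD.

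HOXC was the cluster lower in DLD-1 than in both other lines, with 7 of 9 genes lower than the mean and 5 lower than each line. Its summed level was 3.15 to 4.01 TPM in DLD-1, 19.7 to 23.9 TPM in HCT-116 and 17.9 to 19.7 TPM in HT-29. HOXC13 had at most 3 counts in DLD-1 against 3.76 to 4.37 TPM in HCT-116 and 2.56 to 2.73 TPM in HT-29. HOXC9 was at 0.0991, 0.128 and 0.0342 TPM in DLD-1, 5.04 to 7.83 TPM in HCT-116 and 0.459 to 0.962 TPM in HT-29. HOXC5 was at most 0.0285 TPM in DLD-1 and at least 0.609 TPM elsewhere. HOXC10 (-0.93) and HOXC11 (0.88) were not called.

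HOXD was split within itself. The 5′ genes were higher than each line: HOXD10 was at 2.04, 2.32 and 3.38 TPM in DLD-1, 0.0481 to 0.114 TPM in HCT-116 and 0 counts in HT-29, HOXD9 was at 1.95, 2.12 and 2.24 TPM against at most 0.0519 TPM, and HOXD11 was at 1.03, 1.17 and 1.13 TPM against at most 0.222 TPM. HOXD8, the next gene towards the 3′ end, was not called against the mean and averaged 0.491 TPM in DLD-1, 8.39 TPM in HCT-116 and 0.0312 TPM in HT-29.

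HOXA and HOXB set HCT-116 apart more than DLD-1. HOXB summed to 517 to 590 TPM in DLD-1, 84.4 to 90.2 TPM in HCT-116 and 553 to 629 TPM in HT-29, with 5 of 9 genes higher than the mean and 0 higher than each line. HOXA summed to 369 to 374, 154 to 156 and 257 to 264 TPM, with 5 of 11 genes higher than the mean and 1, HOXA6, higher than each line.

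**Figure D4:**
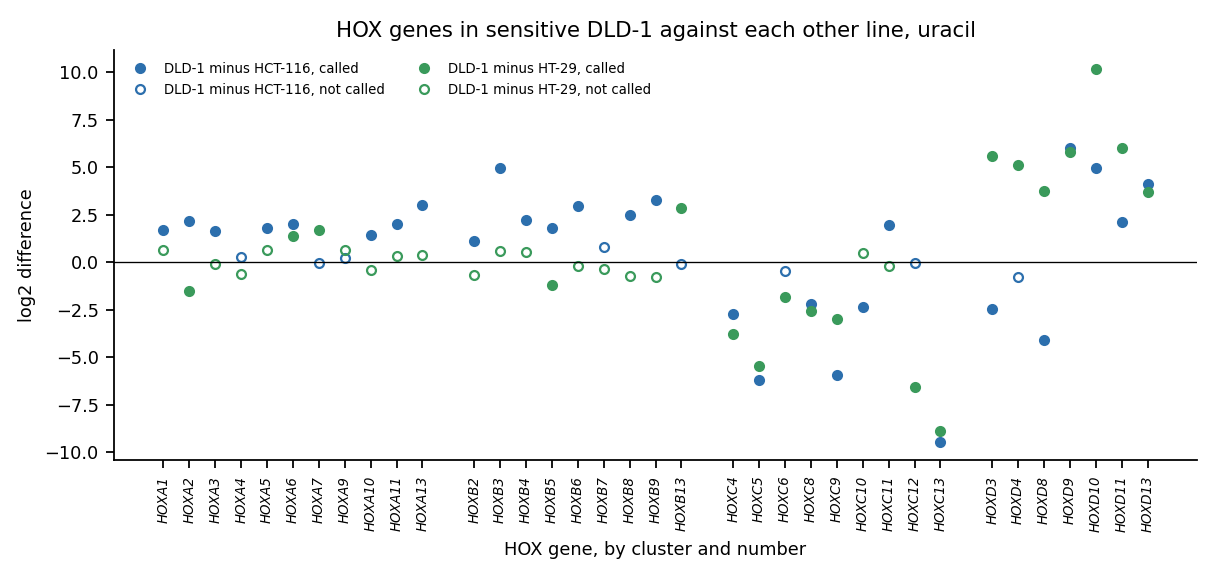
Fitted log2 difference of DLD-1 from HCT-116 and from HT-29 for each HOX gene tested, in cluster order; filled points passed the test and open points did not. HOXC genes lie mostly below 0 against both lines, with a median of -3.24 against their mean, and HOXD9 to HOXD13 lie above 0 against both.

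Of 38 tested epithelial junction and splicing genes, 8 were higher than the mean and 3 lower (median 0.52). Against each line 1 was higher and 2 lower (2.63% and 5.26%, beside 6.19% and 5.37% of all genes tested). Against HCT-116 alone 16 were higher, or 42.1% beside 14.0% of all genes tested. CDH1, E-cadherin, was at 225, 231 and 235 TPM in DLD-1, 26.2 to 26.9 TPM in HCT-116 and 118 to 121 TPM in HT-29. The difference was 2.04 ± 0.04 (SE) from the mean and 0.84 from HT-29, where it stayed under the threshold of size. EPCAM was at 814 to 852 TPM in DLD-1, 292 to 316 TPM in HCT-116 and 609 to 671 TPM in HT-29 and was not called against the mean (0.82). ESRP1, an epithelial splicing factor, was lower in DLD-1 than in each line, at 15.9, 16.8 and 14.1 TPM against 72.3 to 78.0 and 147 to 153 TPM, while its relative ESRP2 averaged 95.6, 27.8 and 54.9 TPM and was higher than the mean. DSC2, a desmosomal cadherin, was lower than each line, at 3.95 to 4.66 TPM in DLD-1, 11.01 to 12.2 TPM in HCT-116 and 19.2 to 19.5 TPM in HT-29. CLDN1, CLDN2 and OVOL2 were higher than HCT-116 but not than HT-29.

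Transcript-level estimates divided the level of some genes between annotated forms differently in each line. CTNND1, p120-catenin, was not called at the gene level (-0.04), but CTNND1-224 made up 26.9% ± 0.9 (SD, n = 3) of its TPM in DLD-1 against 1.28% ± 0.56 in HCT-116 and 71.6% ± 0.5 for HT-29. CTNND1-222 made up 32.8% ± 2.0 of DLD-1's CTNND1, 57.4% ± 0.5 of that of HCT-116 and none of that of HT-29. Of 52 annotated CTNND1 transcripts, 36 were matched to the files. CD44-209 made up 32.2% ± 1.9 of CD44 in DLD-1 against 19.1% ± 1.3 for HCT-116 and 29.7% ± 1.0 for HT-29, and CD44-206 1.97% ± 0.08, 17.5% ± 1.4 and 8.55% ± 0.82. These shares come from dividing reads between overlapping transcripts and were not tested.

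Mesenchymal genes were mostly lower than HCT-116 and more often higher than HT-29. Against HCT-116, 19 of 32 tested were lower and 7 higher, beside 17.8% and 14.0% of all genes tested. Against HT-29, 14 were higher and 5 lower, beside 18.5% and 14.8%. Of 36 listed, 32 were tested, 6 were higher than the mean and 13 lower, 5 were higher than each line and 4 lower than each, with a median of -0.75 against the mean, -2.07 against HCT-116 and 0.86 against HT-29. VIM, vimentin, was at 0.260, 0.239 and 0.531 TPM in DLD-1, 5.61 to 5.97 TPM in HCT-116 and 0.0720 to 0.227 TPM in HT-29. TWIST1, a mesenchymal transcription factor, had 0 counts in DLD-1 and at most 1 in HT-29, against 4.99 to 6.14 TPM in HCT-116. COL6A2 was at 48.6 to 50.9 TPM in HCT-116 and at most 0.133 TPM in the other lines, where DLD-1 and HT-29 overlapped. SPARC averaged 2240 TPM in HCT-116 and 0.919 TPM in DLD-1.

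The members higher than each line in DLD-1 were CDH2, COL4A1, COL4A2, TGFB2 and TGFBI. TGFBI, a secreted TGF-beta target, was at 70.2, 71.1 and 76.6 TPM in DLD-1, at most 0.133 TPM in HCT-116 and 25.6 to 29.0 TPM in HT-29. COL4A1, a basement membrane collagen, was at 1.95, 1.90 and 2.45 TPM against at most 0.112 TPM. CDH2, N-cadherin, was low in DLD-1 too, at 0.321, 0.4395 and 0.370 TPM, against at most 1 count in any other library. TGFB2 averaged 14.1 TPM in DLD-1, 0.287 TPM in HCT-116 and 1.202 TPM in HT-29.

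The abundant simple-epithelial keratins KRT8 (0.32), KRT18 (0.61) and KRT19 (-0.35) were not called against the mean. For KRT8 and KRT18 the mean hid a difference between the other lines, with DLD-1 between them. KRT8 averaged 2607 TPM in DLD-1, 1044 TPM in HCT-116 and 3872 TPM in HT-29, and KRT18 2438, 672 and 3410 TPM. KRT19 averaged 617, 841 and 668 TPM. Of 19 keratins, 15 were tested, with 4 higher than the mean and 4 lower (median 0.32). Against each line 1 was higher and 4 lower (6.67% and 26.7%, beside 6.19% and 5.37% of all genes tested). Those lower than each line were KRT13, KRT15, KRT17 and KRT23. KRT13 was at 0.119 to 0.218 TPM in DLD-1, 1.08 to 1.41 TPM in HCT-116 and 74.3 to 78.8 TPM in HT-29, and KRT15 was at 1.55 to 1.99, 18.1 to 21.0 and 7.54 to 7.73 TPM. KRT5 was the member higher than each line, though at 0.532 to 0.745 TPM in DLD-1. KRT80 was at 30.2 to 30.9 TPM in DLD-1 and overlapped with HT-29.

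Of 18 tested DNA mismatch repair genes, 2 were higher than the mean and 1 lower (11.1% and 5.56%, beside 14.1% and 12.6% of all genes tested). Against each line 1 was higher and 1 lower (5.56% each, beside 6.19% and 5.37%), with a median of 0.26. MSH6, a subunit of the complex that recognises mismatches, was at 14.7, 13.03 and 12.3 TPM in DLD-1, 53.3, 51.5 and 46.6 TPM in HCT-116 and 56.3, 52.8 and 55.2 TPM in HT-29, a difference of -1.96 ± 0.05 (SE) (adjusted p = 2.08e-17, edgeR). The groups did not overlap. MSH3 averaged 19.1 TPM in DLD-1, 2.05 TPM in HCT-116 and 13.6 TPM in HT-29.

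The list of DNA damage response genes holds downstream genes such as CDKN1A, MDM2, BAX and BBC3. It does not hold ATM, ATR, CHEK1 or CHEK2, so damage sensing was not surveyed. Of 28 tested of 30 listed, 1 was higher than the mean and 5 lower (3.57% and 17.9%, beside 14.1% and 12.6% of all genes tested). Against each line 0 were higher and 3 lower (10.7%), beside 6.19% and 5.37% (median -0.53). CDKN1A, the p21 cell cycle inhibitor, was at 8.06, 7.25 and 8.02 TPM in DLD-1, 229, 216 and 215 TPM in HCT-116 and 1.51, 1.94 and 2.20 TPM in HT-29. DLD-1 was therefore lower than HCT-116 (-4.99 on the log2 scale) and higher than HT-29 (1.87). PHLDA3, an inhibitor of AKT, was lower than each line, at 1.04, 1.46 and 1.93 TPM against 17.0 to 25.8 TPM, as were TP53INP1 (-3.10 from the mean) and BTG2 (-1.78). MDM2, BAX and BBC3 were not called.

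Fluoropyrimidine, folate and nucleotide genes had few calls, with 1 of 40 tested higher than the mean and 3 lower. These were 2.5% and 7.5%, beside 14.1% and 12.6% of all genes tested. Against each line 0 were higher and 2 lower (5%, beside 5.37%), with a median of 0.013. TYMS, thymidylate synthase and the target of 5-FU, was at 274 to 285 TPM in DLD-1, 287 to 298 TPM in HCT-116 and 210 to 216 TPM in HT-29, a difference of 0.16 ± 0.05 (SE) that was not called. DPYD, which starts uracil and 5-FU breakdown, was lower than each line but low in every library, at 0.103, 0.0542 and 0.0438 TPM in DLD-1, 0.977 to 1.18 TPM in HCT-116 and 1.46 to 1.57 TPM in HT-29. Its difference was -5.44 ± 0.27 (SE) (adjusted p = 1.48e-12, edgeR). CDA, cytidine deaminase, was also lower than each line, at 3.23 to 5.17 TPM against 17.7 to 19.03 and 8.12 to 9.08 TPM. TYMP was lower than HCT-116 and near HT-29, and GGH, which trims folate polyglutamates, averaged 173, 96.4 and 65.4 TPM.

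Drug efflux and detoxification genes were divided, with 11 of 44 tested higher than the mean and 12 lower (median -0.10). Against each line 3 were higher and 5 lower (6.82% and 11.4%, beside 6.19% and 5.37% of all genes tested). ABCB1, the efflux pump P-glycoprotein, was at 85.0, 82.1 and 81.2 TPM in DLD-1, 1.31 to 1.89 TPM in HCT-116 and 0.297 to 0.642 TPM in HT-29, a difference of 7.33 ± 0.08 (SE) (adjusted p = 1.03e-21, edgeR). GSTM3, a glutathione transferase, was at 306, 291 and 295 TPM in DLD-1 and at most 0.912 TPM in any other library, and GSTM4 averaged 74.5, 15.6 and 1.49 TPM. GSTM genes lie together on chromosome 1 and are alike, and all 6 tested genes from GSTM4 to CSF1 (chr1:109656099-109930992) were higher than the mean, 4 of them higher than each line. The ends of that stretch were drawn where the calls against the mean began and ended, so the count describes it and is no result. UGT1A6 and ALDH3A1 were near HT-29 (0.11 and 0.47) and almost unread in HCT-116.

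The members lower than each line included the transporter ABCC3 (means of 23.2, 44.8 and 212 TPM), ALDH1A3 (7.03, 262 and 15.3 TPM) and AKR1C1, an aldo-keto reductase at 0.0795 to 0.363 TPM in DLD-1, 0.350 to 0.875 TPM in HCT-116 and 35.2 to 43.3 TPM in HT-29. DLD-1 and HCT-116 overlapped for AKR1C1, and its reads may be divided with AKR1C2.

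Among EGFR ligands and MAPK feedback genes, 4 of 32 tested were higher than the mean and 9 lower. These were 12.5% and 28.1%, beside 14.1% and 12.6% of all genes tested. Against each line 2 were higher and 5 lower (6.25% and 15.6%, beside 6.19% and 5.37%), with a median of -0.22. The members higher than each line were AREG and EREG. DUSP4, a phosphatase that inactivates ERK, was at 1.85, 1.57 and 1.88 TPM in DLD-1, 27.8 to 29.0 TPM in HCT-116 and 14.1 to 14.7 TPM in HT-29 (-3.65 ± 0.07 SE from the mean). SPRY4, a receptor tyrosine kinase inhibitor, was at 6.84, 7.17 and 7.06 TPM against 66.2 to 67.8 and 15.3 to 16.02 TPM. ETV4, MET and EGF were also lower than each line, whereas DUSP6 (0.25), SPRY2 (0.08) and EGFR (-0.11) were not called.

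Interferon-stimulated genes showed no single direction. Of 40 tested, 15 were higher than the mean and 10 lower, 6 were higher than each line and 6 lower than each (median 0.55). Higher than each line were IFITM2, OAS3, IFIH1, USP18, HERC6 and PARP12, with OAS3, an antiviral oligoadenylate synthetase, at means of 74.9, 19.8 and 19.7 TPM. Lower than each line were BST2, IFI44, GBP2, OASL, IFI35 and XAF1. IFI35 was at 1.40 to 1.64 TPM in DLD-1, 9.06 to 9.88 TPM in HCT-116 and 11.2 to 12.5 TPM in HT-29.

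BST2, tetherin, was at 1.40, 0.0531 and 0 TPM in DLD-1, 2.24 to 3.12 TPM in HCT-116 and 110 to 111 TPM in HT-29. IFI44 was at 0.939, 0 and 0 TPM in DLD-1, so that its replicate 1 lay within the HCT-116 range of 0.744 to 1.30 TPM. OAS1 was at 19.98 to 22.1 TPM in DLD-1, near HT-29 at 23.8 to 29.9 TPM and above HCT-116 at 0.113 to 0.274 TPM.

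MHC class I presentation genes were mostly higher than the mean or uncalled, with 9 of 21 tested higher and 1 lower, 3 higher than each line and 1 lower than each (median 0.68). PSMB8, a catalytic subunit of the immunoproteasome, was at 62.3, 60.5 and 64.7 TPM in DLD-1, 0.867, 0.592 and 0.501 TPM in HCT-116 and 7.07, 7.47 and 5.71 TPM in HT-29, a difference of 4.65 ± 0.09 (SE) (adjusted p = 8.93e-19, edgeR). ERAP1, a peptide-trimming enzyme, and TAPBPL, a peptide editor, were also higher than each line. B2M, the light chain shared by class I molecules, went the other way, at 270, 251 and 259 TPM in DLD-1, 714, 711 and 748 TPM in HCT-116 and 1194, 1121 and 1076 TPM in HT-29 (-1.95 ± 0.05 SE, adjusted p = 2.88e-16, edgeR).

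TAP1, PSMB9 and NLRC5 separated HT-29 from the other lines. TAP1, a subunit of the peptide transporter, was at 29.5 to 32.5 TPM in DLD-1, 25.7 to 28.3 TPM in HCT-116 and 1.72 to 2.16 TPM in HT-29. HLA genes vary between people, and one reference annotation may not count them equally in the lines. HLA-C averaged 207 TPM in DLD-1, 220 TPM in HCT-116 and 18.1 TPM in HT-29.

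Genes often silenced by promoter methylation in colorectal cancer, of which 28 of 49 were tested, were higher than the mean in 9 cases and lower in 9, higher than each line in 6 and lower than each in 3 (median -0.04). Methylation was not measured. TIMP3 was at 6.14, 6.60 and 6.63 TPM in DLD-1, at 0 counts in HCT-116 and at most 2 counts in HT-29. CDH13, a cadherin without a cytoplasmic tail, was at 1.99 to 2.11 TPM in DLD-1 and at most 0.733 TPM elsewhere, and IGFBP3 was at 2.36 to 2.50 TPM in DLD-1, 1.42 to 1.78 TPM in HCT-116 and 0 counts in HT-29. CDKN2A, CDKN2B and CDH4 were lower than each line. RUNX3 was at 14.0 to 15.7 TPM in HCT-116 and at most 0.104 TPM in DLD-1 and HT-29, which overlapped.

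Around CDKN2A on chromosome 9 (chr9:21329665-22009305), 3 of the 5 tested protein-coding genes were lower than each line, as were 5.37% of all genes tested. The stretch was chosen after its values were seen, around a gene picked for its large difference. The 3 genes were CDKN2A, CDKN2B at a mean of 1.71 TPM in DLD-1, 6.02 TPM in HCT-116 and 7.55 TPM in HT-29, and MTAP, a methionine salvage enzyme, at 65.7, 64.0 and 67.2 TPM in DLD-1. MTAP and CDKN2B were thus read clearly in DLD-1, while CDKN2A was nearly unread.

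Cancer-testis and imprinted genes were tested in 18 of 42 cases, with 5 higher than the mean and 5 lower, 2 higher than each line and 3 lower than each (median -0.27). H19, an imprinted non-coding RNA, was at 178, 188 and 206 TPM in DLD-1, 2.77 to 3.34 TPM in HCT-116 and 0.0898 to 0.239 TPM in HT-29, a difference of 8.63 ± 0.08 (SE) (adjusted p = 1.63e-22, edgeR). IGF2, its neighbour, averaged 7.195, 14.1 and 2.65 TPM and was not called. PEG10, a paternally expressed retroelement-derived gene, was at most 0.0484 TPM in DLD-1, 10.7 to 11.2 TPM in HCT-116 and 0.224 to 0.3602 TPM in HT-29. PLAGL1 was at 24.9 to 27.1 TPM in DLD-1, 19.97 to 20.3 TPM in HCT-116 and at most 0.117 TPM in HT-29.

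The testis antigens MAGEA3 and MAGEB2 had 0 counts in DLD-1. In HCT-116 they were at 86.7 to 89.0 and 172 to 189 TPM, so DLD-1 was at least 2556-fold and at least 4434-fold lower. MAGEA3 was at 0.347 to 0.442 TPM in HT-29, MAGEB2 had at most 1 count there, and reads of MAGEA3 may be divided with MAGEA6.

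No proliferation gene passed the threshold of size against the mean of the other lines. Of 30 tested, 0 were called against that mean in either direction by edgeR and 0 by DESeq2, with a median of 0.052, while against HCT-116 alone edgeR called 1 higher and 1 lower. The differences from the mean ran from -0.78 to 0.54 on the log2 scale, and 23 had an unadjusted p under 0.05 and 19 an adjusted p of at most 0.01. MKI67 averaged 81.6, 75.0 and 70.9 TPM, CCNB1 307, 312 and 302 TPM, and the ends of the range were CDT1, a replication licensing factor, with means of 33.2, 65.6 and 38.5 TPM, and TOP2A, a topoisomerase, with means of 166, 79.03 and 158 TPM.

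Stromal, endothelial and immune markers gave 5 genes higher than the mean and 4 lower of 14 tested, 1 higher than each line and 1 lower than each (median -0.29). The member higher than each line was CLDN5, at 1.15 to 1.47 TPM in DLD-1, and the member lower was CD68, at 0.524 to 1.03 TPM against 8.07 to 9.02 and 3.25 to 6.09 TPM. COL1A1 was at 19.5 to 24.2 TPM in HCT-116 and 0.504 to 1.42 TPM in DLD-1 and HT-29, which overlapped. PTPRC, CD3D, CD3E and MS4A1, defining markers of blood cells, did not pass the filter on low counts.

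**Figure D5:**
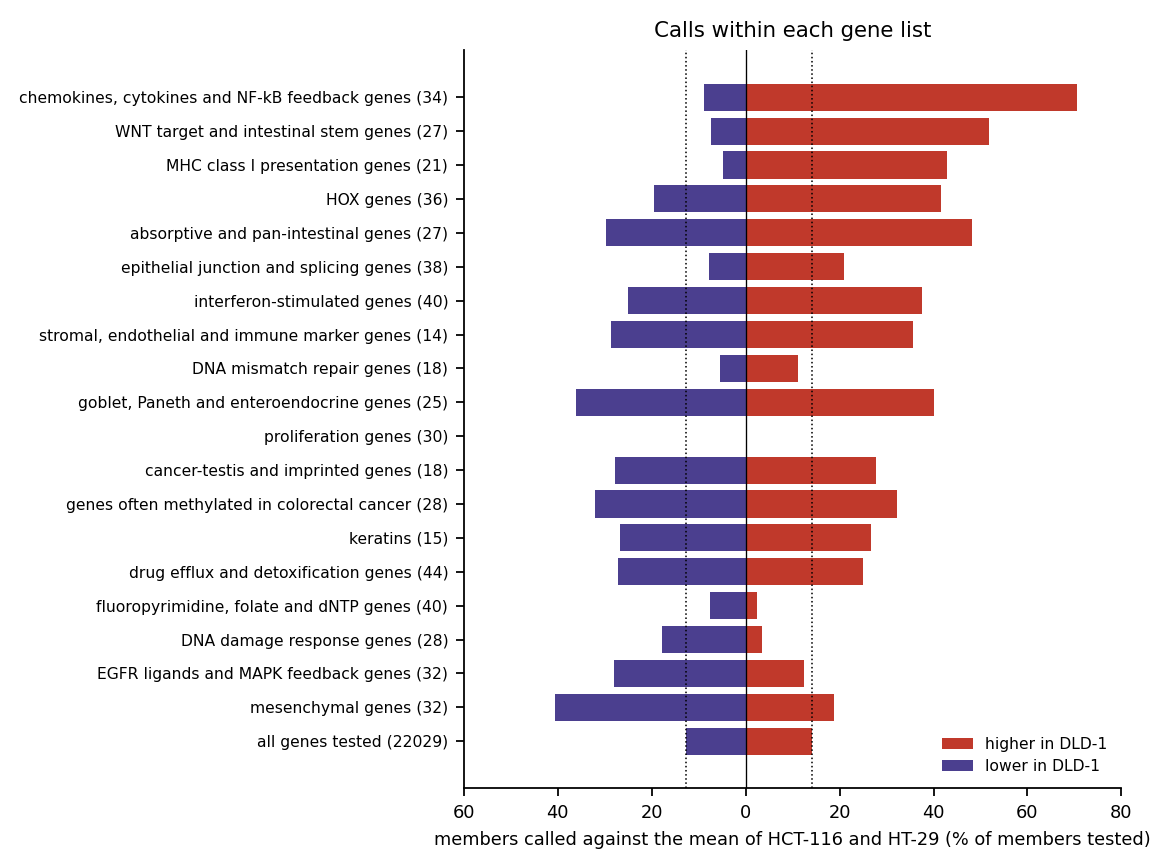
Percent of the tested members of each of the 19 gene lists called higher (right) or lower (left) in DLD-1 than the mean of the other lines, with dotted lines at the percents over all genes tested, 14.1% and 12.6%. Chemokines and NF-kB feedback genes (24 of 34) and WNT and stem genes (14 of 27) have the longest bars on the higher side, and proliferation genes have none.

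Called genes also lay next to each other in places. Runs of at least 4 adjacent tested protein-coding genes with the same call against each line were counted. There were 6 of higher genes (27 genes, the longest of 6) and 3 of lower genes (12 genes, the longest of 4). Over all genes tested, 6.19% were higher than each line and 5.37% lower. How many runs such shares would give was not worked out. Some members, such as PF4V1 and SAA4, had 0 counts in the other lines and were tested only because DLD-1 reads them. The longest run was that of the CXC chemokines from PF4V1 to CXCL2 (chr4:73853296-74099196). Others higher in DLD-1 were SAA4 to SAA1 (chr11:18231355-18269977), where read-through genes share reads, HOXD13 to HOXD9 (chr2:176092721-176124937), LTBP1 to FEZ2 (chr2:32946953-36646087), KRT5 to KRT3 (chr12:52514575-52796117) and the LY6G6 genes (chr6:31706904-31726714).

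The runs lower in DLD-1 were HOXC9 to HOXC5 (chr12:53994895-54056030), LEMD1 to MFSD4A (chr1:205381378-205602918) and FNDC4 to ZNF512 (chr2:27491883-27623217). In the last, FNDC4 had 0 counts in DLD-1 and ZNF512 at most 5, against 17.7 to 31.2 TPM for ZNF512 in the other lines. Positions are from GRCh38 and were known for 77% of the genes tested, so a run may skip genes without one.

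By chromosome, the share of genes higher than the mean ran from 9.53% of 556 genes on chromosome 15 to 21.0% of 181 genes on chromosome 21. The share lower ran from 8.76% of 982 genes on chromosome 3 to 19.8% of 552 genes on chromosome 8, with 19.1% on chromosome 19. The longest run of adjacent genes lower than the mean, of 10 genes, lay on chromosome 8, where a read-through gene in the run shares reads with its neighbours. The median difference ran from -0.25 on chromosome 20 to 0.38 on chromosome 21.

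The comparison was repeated in separate libraries of the same lines after 10 µM 5-FU for 24 h, 3 of each. Of 23897 genes tested there, 1475 were higher in DLD-1 than each other line (6.17%) and 1501 lower (6.28%). Of the 1363 genes higher than each line in uracil, 1337 were tested under 5-FU and 940 were called again, which is 69.0% of the uracil calls and 63.7% of the 5-FU calls. Of the 1184 lower, 1177 were tested and 889 were called again, 75.1% of the uracil calls and 59.2% of the 5-FU calls. No gene was called in the opposite direction.

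Of the 131 genes chosen by the naming rule, 93 were called against each line in uracil, and 86 of these were called again under 5-FU. CXCL5 was at 1344 to 1414 TPM in DLD-1 under 5-FU, against at most 0.345 TPM in the other lines. Those not called again were AC011558.1, EEF1G, AGR2, TFF1, BTG2 and EREG, with ATOH1 not tested. A test of the change itself, the interaction of line and treatment, called 818 of 24461 genes (3.34%).

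Levels in another culture of the line were set beside these. In resistant DLD-1 given uracil, 40 of the 46 genes of that rule higher than each line (87.0%) and 31 of the 47 lower (66.0%) were within 2-fold of the sensitive DLD-1 mean. This was so for 84.0% of all 1363 genes higher than each line, 65.0% of all 1184 lower and 88.8% of all genes tested, so the shares of the chosen genes are near those of the genes they were drawn from. Most lower genes were near 0 in DLD-1, where such ratios are imprecise. Of the 1184, 416 averaged over 1 TPM in sensitive DLD-1, and 354 of these were within 2-fold. Among the 1363 higher genes, 1034 averaged over 1 TPM and 908 of these were within 2-fold. For the chosen lower genes it was 14 of 15. CXCL5 averaged 2451 ± 169 TPM (SD, n = 3), LEF1 52.9 ± 2.0 TPM and KIT 25.7 TPM. The exceptions among the 46 were SAA1 (249 TPM), SAA2 (55.5 TPM) and TIMP3 (15.8 TPM), which were higher in the resistant form, and CADM1 (2.67 TPM), IL32 (5.66 TPM) and UNC5C (0.0418 TPM), which were lower. These were compared by their means, with no test.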

How the data were processed

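Poly(A)-selected RNA was sequenced by the study. The authors trimmed reads with Trimmomatic 0.36, checked them with FastQC 0.11.8 and quantified transcripts with kallisto 0.44.0. They deposited estimated counts and TPM per gene and transcript; counts need not be whole (60.7% were), so they were rounded here. Reads shared by near-identical genes are divided by the quantifier, which makes paralogs uncertain. Columns were matched to libraries by label.

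Sensitive lines in uracil (3 libraries each) entered edgeR 4.0.16 (R 4.3.3; filterByExpr, TMM, quasi-likelihood, 1 group per line). The same fit was run on 5-FU libraries, and an interaction fit over both. A gene was called at an adjusted p of 0.01 or less with a log2 difference of 1 or more. The SE printed with a difference is its size divided by the square root of the test's F statistic. For genes with almost no reads on one side the size depends on the prior count, which this SE does not take in. DESeq2 1.42.0, limma 3.58.1 on log2(TPM + 1) and other settings were alternatives; code was tested on simulated data. DLD-1 replicate 2 was the deepest library, at 218518001 counts, and low levels elsewhere are less precise.

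Named genes (131) were the 12 largest differences from the mean each way among genes called against each line and averaging at least 10 TPM on the higher side, the 3 most abundant called genes each way, up to 6 called per list by size, and genes fixed by name; others were named from the lists or after their values were seen. The members, 19 lists and tests were chosen with earlier results of these data known. Positions are from GENCODE (GRCh38), promoters from RefSeq (GRCh38.p14). Genes of the Y chromosome and the X inactivation transcript are not reported. Results on some genes chosen by these rules, and some driver mutations of the lines, are not reported here.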

Additional observations from a re-analysis of the deposited data

Results flagged for a closer look

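For 15 of the named genes the difference between DLD-1 and the mean of the other lines under 5-FU was not the one measured in uracil (edgeR interaction term, adjusted p at most 0.01, change of at least 1 on the log2 scale; 818 of 24461 genes in all). The change, 5-FU minus uracil, came out at 14.06 for AC011558.1, a fitted size that rests on zeros and depends on the prior count. This gene had no reads in DLD-1 or in 1 HCT-116 library in uracil, and under 5-FU it ran from 0 to 25.9 TPM in DLD-1 and was listed at 0 in all HT-29 libraries. Among DNA damage response genes it was -3.16 for CDKN1A, -1.90 for TP53INP1 and -1.20 for TP53I3. For WNT genes it was -3.28 for APCDD1 and -1.34 for BAMBI, and for keratins 1.12 for KRT13, -1.23 for KRT15 and -1.06 for KRT80. It was -1.66 for OAS1 and -1.36 for OASL, both interferon-stimulated, -2.38 for H19, -1.21 for TNFAIP2, 1.89 for CLDN1 and -1.76 for VWF. For CDKN1A the mean level was 7.78 TPM in uracil and 6.38 TPM under 5-FU in DLD-1, 220 and 664 TPM in HCT-116, and 1.88 and 30.9 TPM in HT-29, so the levels moved in the other lines. For H19 they were 191 and 65.4 TPM in DLD-1, 3.08 and 2.35 TPM in HCT-116, and 0.158 and 0.475 TPM in HT-29. For KRT15 and KRT80 the mean was higher under 5-FU in all lines, from 1.80 to 4.89 and from 30.5 to 53.4 TPM in DLD-1, against 7.66 to 29.7 and 29.6 to 134 TPM in HT-29. These changes within a line were not tested one by one.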

How the results depend on the processing

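Raising the size threshold to 2 on the log2 scale left 1516 genes higher and 1416 lower than the mean in uracil, 632 higher and 592 lower than each line, 678 and 776 under 5-FU, and 146 with a changed difference. With limma on log2(TPM + 1), a scale that shrinks differences of low genes and tests fewer of them, these were 1699, 1491, 835, 466, 876, 575 and 309. Under DESeq2, without TMM, without the filter on low counts and with all 54 libraries fitted together, each stayed within 1.5 times its value in the report, as it did with the deepest library thinned, which was not run for 5-FU alone since that library is a uracil one. Of the 38 list counts, higher and lower, 19 moved by more than 1.5 times at the threshold of 2 (all fell), 7 with limma (all fell), 1 without TMM and 1 without the filter, both times the DNA damage response genes higher, from 1 to 2. Among them were interferon-stimulated genes higher, from 15 to 4, HOX genes higher, from 15 to 6, and epithelial junction and splicing genes higher, from 8 to 1, at the threshold of 2. With no filter the median over all genes was 0.138 against 0.0246. Leaving out 1 library at a time gave 2923 to 3261 higher and 2643 to 2742 lower than the mean, and 1252 to 1421 and 1141 to 1169 against each line. A replicate block gave 1372 higher and 1160 lower than each line and ended no call of a named gene. In uracil, libraries of the same number in different lines deviated together at r of -0.081 to 0.086, and those of different numbers at -0.070 to 0.130. With 3 libraries per line these values cannot decide whether the numbers mark a pairing. No named gene reversed. LUM lost its call without DLD-1 replicate 2 or HCT-116 replicate 2, TWIST1 without HT-29 replicate 1 and MAGEB2 without HT-29 replicate 2. Each of them is at or near 0 in DLD-1, and the cause was not tested. With limma 9 of the 122 named genes tested lost theirs: EEF1G, CLDN1, KRT17, HOXD11, PLK3, TP53I3, TYMP, EPHA4 and ETV1.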
